A study of Mus musculus with 8 samples.

Results

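Untreated activated hepatic stellate cells and activated cells that carried a control microRNA were compared across all measured genes. The labels of the series name 4 groups of mouse hepatic stellate cells with 2 libraries each, a and b, and the comparison used 4 of the 8 libraries: activated cells and activated cells with the control microRNA. The remaining groups, quiescent cells and activated cells with miR-15a, entered the filter on low values and the estimate of the spread, and are given as reference levels, with a direct difference between the microRNA groups for 3 genes at the end. The deposited file lists 14162 genes, of which 13150 passed the filter on low values and were tested. Since the filter used all 8 libraries, 20 of the called genes (17 higher and 3 lower) reached its value of 10 in fewer than 2 of the 4 compared libraries and were tested only through the other groups. The animals came from C57BL/6J and SCID mouse strains, per the labels, which do not tie a library to a strain and give no age, sex, time in culture, genotype beyond the strain or means of activation. The control microRNA is named only as such: its sequence, dose, carrier and duration are not given in the sources used here, and neither is whether the untreated cells received the carrier alone. Whether libraries a and b came from separate animals or cultures is not stated, and the p-values thus reflect variation among the libraries alone, technical variation included.

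Stellate cells are the vitamin A storing pericytes of the liver sinusoid. On injury or on culture plastic they become contractile, matrix-secreting myofibroblasts, the main source of scar collagen in the liver. A control microRNA is a small RNA meant to have no matching target in the cell, and a comparison with untreated cells shows what differs between the control arm and cells that received nothing. Introduced double-stranded RNA can be sensed by the innate receptors RIG-I and MDA5, which switch on interferon-stimulated genes, and for this reason antiviral genes are among those read in such controls.

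All values below are the deposited normalized scores, which have no unit of reads and do not give the depth of a library. Every library holds the same 910 distinct whole numbers with a shared maximum of 125636, so a gene at or near the top can move only between coarse steps. Libraries a and b correlated across genes at a Pearson r of 0.986 in activated cells and 0.987 with the control microRNA on the log2(value + 5) scale, against 0.970 to 0.979 between libraries of these groups. Both groups carried the marks of activated stellate cells. Acta2, smooth muscle actin, was at 125636 in both activated libraries and at 125636 and 58193 with the control microRNA, and Col1a2, a chain of type I collagen, was at 125636 in all 4. Of the stellate identity genes, Lrat, Gfap, Lhx2, Colec10 and Tcf21 were not analysed here. Desmin (Des), an intermediate filament of stellate cells, was at 56 and 48 in activated cells and at 30 and 11 with the control microRNA (adjusted p = 0.051).

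Sex chromosome genes set the activated libraries apart from the control microRNA libraries, and this touches every value that follows. Xist, the RNA that silences 1 X chromosome in female cells (chromosome X, 103460366 to 103483254, minus strand, mm10), was at 169 and 21 in the activated libraries and at 3373 and 5027 with the control microRNA. The Y-linked RNA helicase gene Ddx3y was at 2606 and 2570 in activated cells and at 1282 and 1268 with the control microRNA, a log2 fold change of -1.02 ± 0.07 (SE). Eif2s3y, a translation factor subunit encoded on the Y, fell by 0.76 on the log2 scale, Kdm5d, a Y-linked histone demethylase, fell by 0.85, and Uty, another demethylase of the Y, fell by 0.54. The X-linked genes Eif2s3x (0.66 ± 0.07) and Kdm5c (0.57 ± 0.10), which escape X inactivation, rose. Over all 668 X-linked genes tested, 34 were called higher and 94 lower, which is 5.09% and 14.1%, against 7.36% and 6.13% of 11841 autosomal genes, and the median log2 fold change was -0.19 on the X and -0.03 on autosomes. Of 24 Y-linked genes tested 17 had a mean between 71 and 76.5 in activated cells and between 48.5 and 52 with the control microRNA. The 24 may thus not be separate signals. Of the 24, 10 were lower (41.7%, against 6.13% of autosomal genes) and 1 was higher (4.17%, against 7.36%). The latter, Usp9y, was at 68 and 74 in activated cells and at 104 and 152 with the control microRNA (adjusted p = 0.045), and is named after its values were seen. Its call was lost without any 1 library other than control library a. Kdm6a, which also escapes X inactivation, did not pass at 144 and 157 against 244 and 190 (adjusted p = 0.050). The quiescent libraries had Xist at 8724 ± 0 and Ddx3y at 42 ± 2.83, and the miR-15a libraries had Xist at 3373 ± 0 and Ddx3y at 1026 ± 28.3 (mean ± SD, n = 2). Xist was thus higher and the Y-linked genes Ddx3y, Eif2s3y, Kdm5d and Uty were lower in both control microRNA libraries, and the groups were not matched in transcripts of the sex chromosomes. An effect of the control microRNA and a difference in the source of the cells cannot be told apart in any result below.

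**Figure D1:**
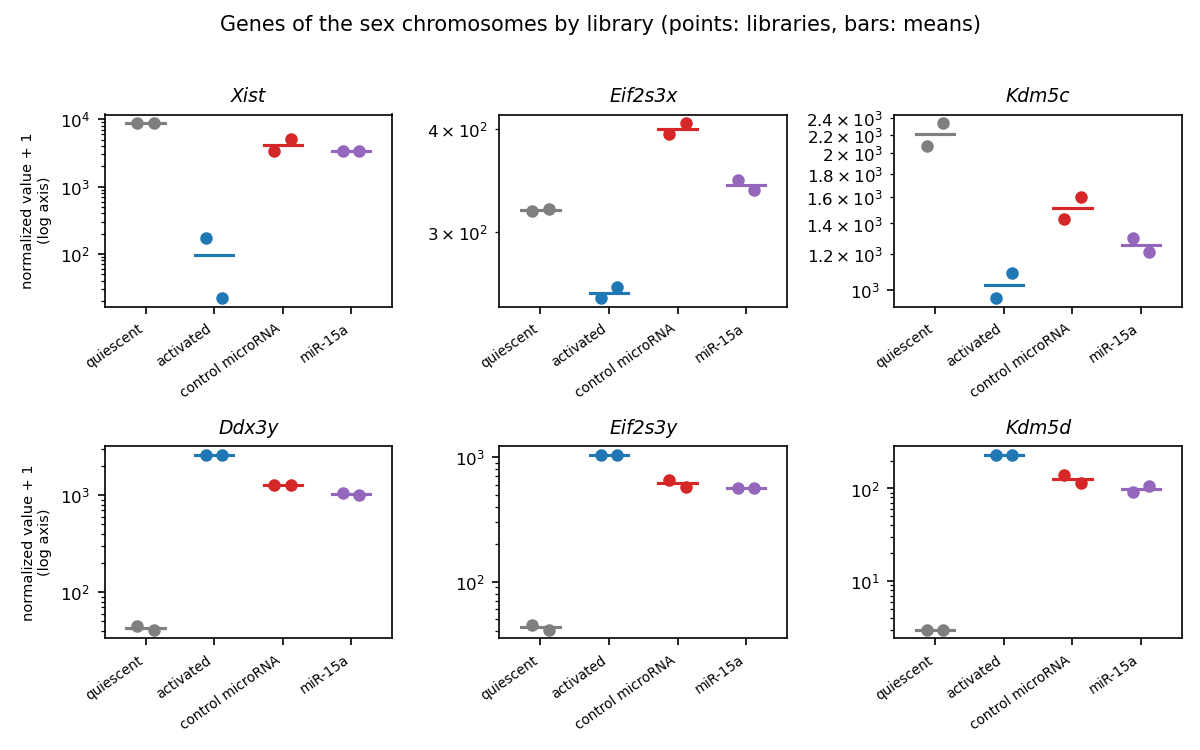
Normalized value + 1 (log axis) of 6 genes of the sex chromosomes in the 8 libraries, grouped as quiescent, activated, control microRNA and miR-15a (points are libraries, bars are means of 2). Xist is lowest in the activated libraries (169 and 21) and at 3373 and 5027 with the control microRNA, while Ddx3y, Eif2s3y and Kdm5d are lower with the control microRNA than in activated cells.

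With the control microRNA 944 genes were called higher and 869 lower at an adjusted p under 0.05 (limma), 7.18% and 6.61% of the 13150 tested. Each count of called genes in a gene list below is to be read beside these shares. With a log2 fold change beyond 1 as well, 235 were higher (1.79%) and 87 lower (0.662%). The values of the groups did not overlap, with control above, in 25.2% of genes and, with control below, in 34.3%, and the median log2 fold change of all genes was -0.035. With median-ratio scaling the split became 1371 higher and 494 lower. Without activated library a the counts were 473 and 210, without activated library b 356 and 134, and without control library b 427 and 242. Of the called genes with non-overlapping groups and a mean of at least 100 in a group, 705 were higher and 660 lower. The 15 with the largest fold change in each direction are described next.

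**Figure D2:**
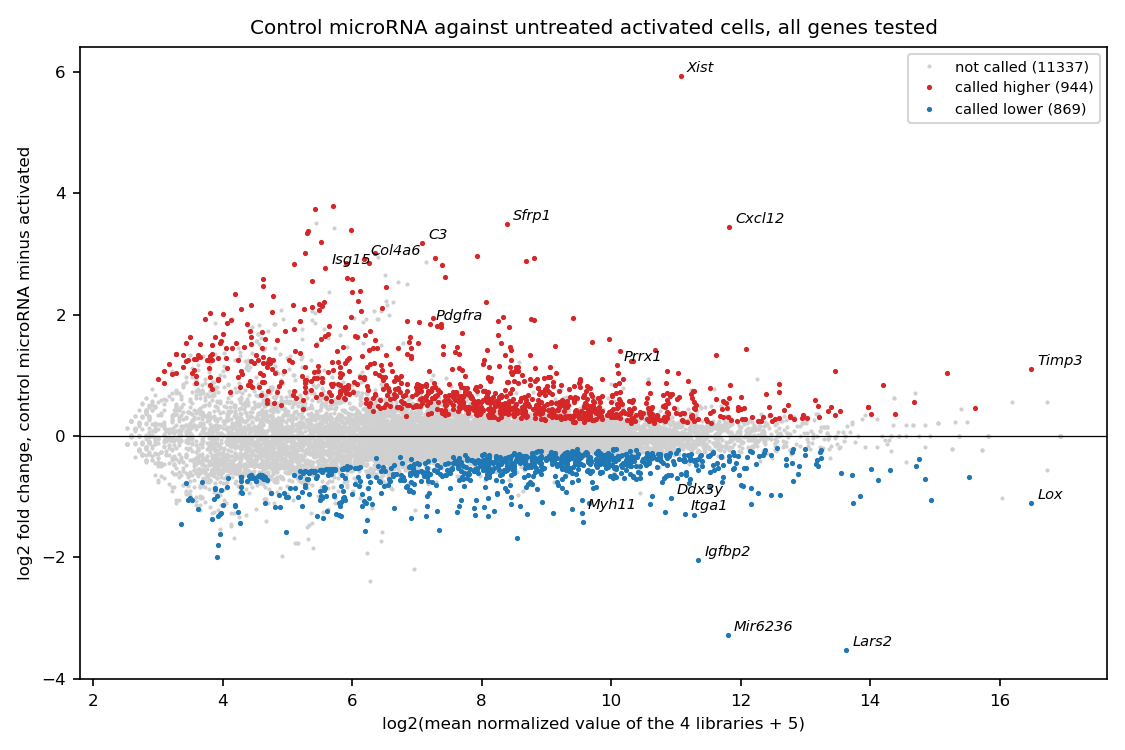
Log2 fold change of the control microRNA against activated cells (vertical axis) by the log2 mean of the 4 libraries' normalized values plus 5 (horizontal axis) for the 13150 genes tested. Red points are the 944 genes called higher, blue points the 869 called lower and grey points the rest, with Xist, Sfrp1 and Cxcl12 at the top and Lars2, Mir6236 and Igfbp2 at the bottom.

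Sfrp1, a secreted antagonist of Wnt signalling (chromosome 8, 23411502 to 23449632, plus strand), was at 64 and 38 in activated cells and at 630 and 584 with the control microRNA. Its log2 fold change was 3.49 ± 0.24 (adjusted p = 4.0e-04), and quiescent cells held almost none (0.5 ± 0.71). Cxcl12, the chemokine that retains haematopoietic cells in their niches (chromosome 6, 117168535 to 117181367, plus strand), was at 676 and 546 in activated cells and at 6462 and 6822 with the control microRNA (3.44 ± 0.10, adjusted p = 2.5e-05). It was at 3186 ± 25.5 in quiescent cells and 3703 ± 270.1 with miR-15a, so the control microRNA group was the highest of the 4 groups. C3, the central complement component (chromosome 17, 57203970 to 57228136, minus strand), was at 24 and 20 and at 220 and 258 (3.18 ± 0.18). Col4a6, a chain of basement membrane collagen on the X chromosome (141165403 to 141474076, minus strand), went from 14 and 10 to 124 and 122 (2.92 ± 0.18). The lack of overlap between the groups was a condition for choosing these genes and adds no support. The calls of Sfrp1, Cxcl12, C3 and Col4a6 held in all 16 alternative analyses.

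Olfml3, a secreted olfactomedin-domain protein, rose by 2.97 ± 0.13, Clmp, an adhesion molecule of the immunoglobulin family, by 2.85 ± 0.29, Nrn1, the surface protein neuritin, by 2.81 ± 0.28 and S1pr3, a receptor for sphingosine 1-phosphate, by 2.62 ± 0.20. Trim30d, a member of an interferon-inducible TRIM family, rose from 13 ± 1.41 to 140.5 ± 14.8, and Bst2, the antiviral protein tetherin, from 54 and 14 to 172 and 362. Rpl21 was at 204 and 37 in activated cells and at 495 and 1030 with the control microRNA. It is a ribosomal protein gene with many near-identical copies, as are the histone gene Hist2h4 (2.89 ± 0.17) and the vomeronasal receptor genes Vmn2r29 (3.39 ± 0.14) and Vmn2r79 (2.59 ± 0.21) with theirs, so reads could have been split among copies and these 4 values are uncertain. The call of Rpl21 was lost without activated library b, without control library b and without any 1 library of the quiescent or miR-15a groups.

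The 2 largest decreases were larger against activated library a than against activated library b. Lars2, which encodes the mitochondrial leucyl-tRNA synthetase (chromosome 9, 123366927 to 123462666, plus strand), was at 42350 and 5561 in activated libraries a and b and at 1353 and 1296 with the control microRNA. Mir6236, an annotated microRNA gene (chromosome 9, 110281287 to 110281409), followed the same pattern at 11352, 1912, 466 and 489. Libraries a and b also differed in quiescent cells (Lars2 at 24099 and 7286, Mir6236 at 3374 and 2037). The same held with miR-15a (Lars2 at 6822 and 3203, Mir6236 at 1874 and 752). The log2 fold change was -3.53 ± 0.93 for Lars2 and -3.27 ± 0.78 for Mir6236 with all libraries. Without activated library a Lars2 was at -2.07 and Mir6236 at -1.99, and neither was called. Of the settings that leave out 1 library, both were called only without activated library b. Igfbp2, a binding protein that holds insulin-like growth factors (chromosome 1, 72824503 to 72852474, plus strand), was at 4088 and 4266 in activated cells and at 990 and 1024 with the control microRNA (-2.05 ± 0.17, adjusted p = 8.4e-04), and at 58 ± 12.7 in quiescent cells. Itga1, the collagen-binding integrin alpha 1 (chromosome 13, 114953096 to 115101964, minus strand), was at 3047 and 3317 and at 1308 and 1294 (-1.29 ± 0.07). Epha4, an ephrin receptor, fell by 1.29, and Eln, elastin, fell by 1.28, as did Ccl17, a T cell chemokine (fell by 1.56), Spry1, a feedback inhibitor of receptor tyrosine kinases (fell by 1.31), and Foxl1, a forkhead factor of mesenchyme (fell by 1.31). The odorant receptor genes Olfr78 and Olfr558, of which Olfr78 is known from vascular smooth muscle of the kidney, fell by 1.41 and 1.38. Scarna6, a small Cajal body RNA, Fam189a2, Sytl1 and Atp9a completed the 15, with log2 fold changes from -1.68 to -1.31. The control libraries of Scarna6 were at 118 and 241 against 549 and 559 in activated cells, and its call was lost without either activated library. The call of Eln was lost without activated library a, activated library b or control library b.

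**Figure D3:**
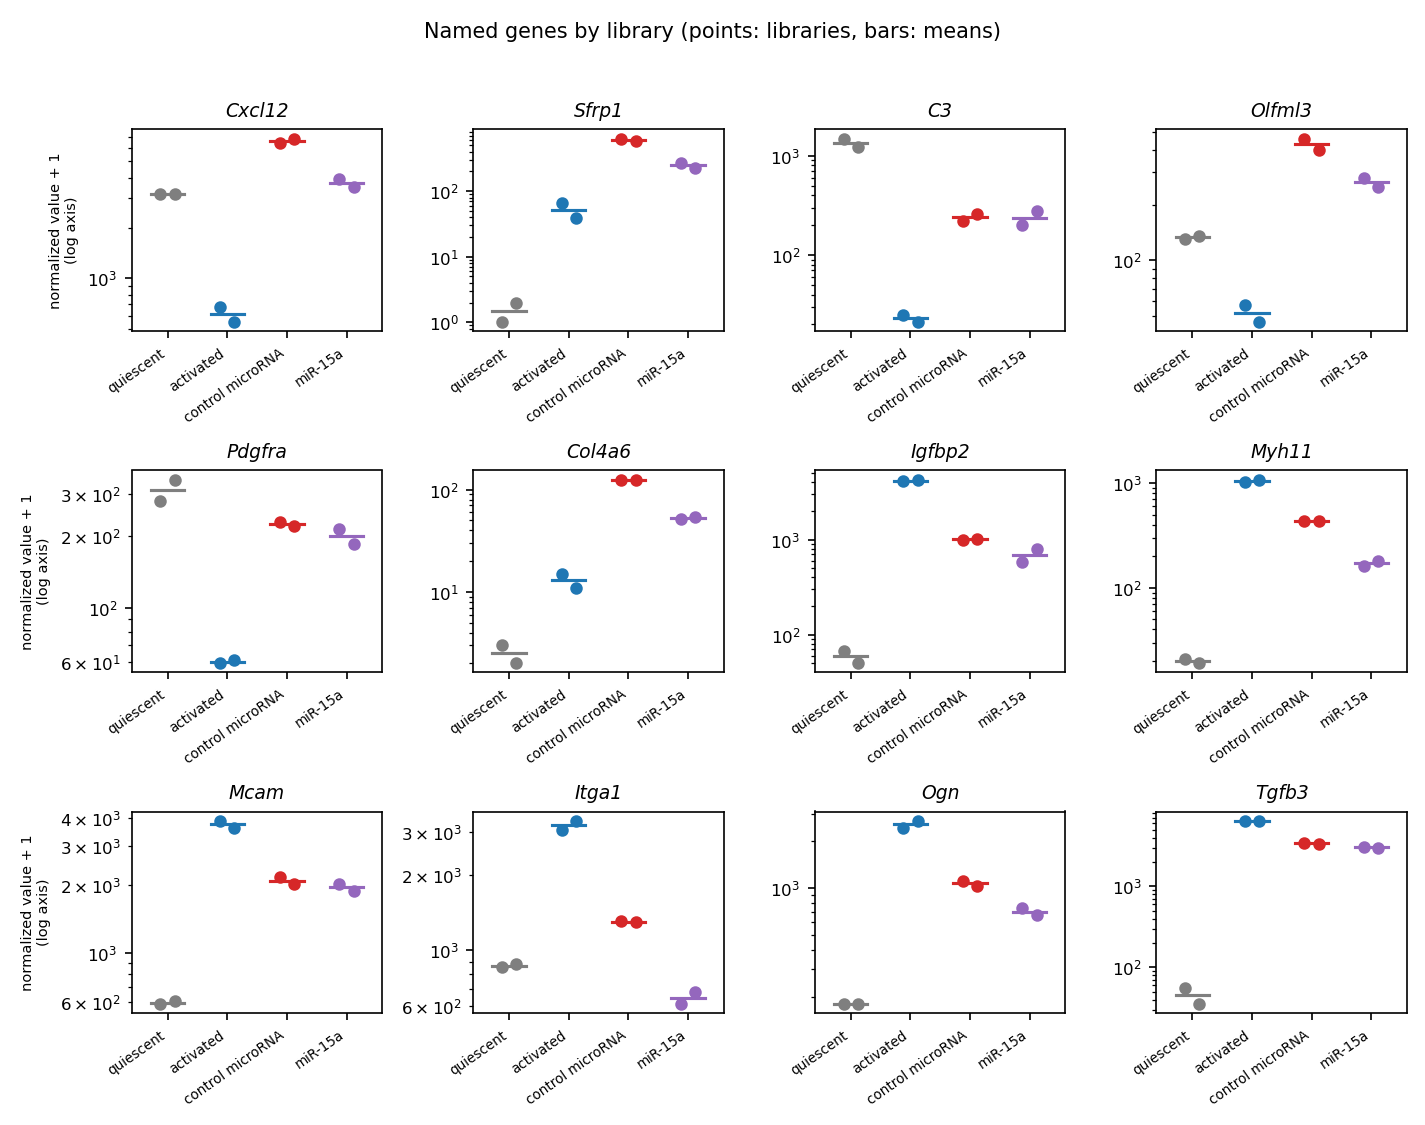
Normalized value + 1 (log axes, a different range in each panel) of 12 named genes in both libraries of quiescent, activated, control microRNA and miR-15a cells (points are libraries, bars are means of 2). Cxcl12, Sfrp1, C3, Olfml3, Pdgfra and Col4a6 are higher with the control microRNA than in activated cells, and Igfbp2, Myh11, Mcam, Itga1, Ogn and Tgfb3 are lower, with no overlap between these 2 groups.

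Part of the genes of smooth muscle contraction were lower in the cells with the control microRNA. Of 20 contractile genes tested 8 fell (40.0%, against 6.61% of all genes) and none rose, with a median log2 fold change of -0.31 against -0.035 over all genes. Myh11, smooth muscle myosin heavy chain (chromosome 16, 14194535 to 14291372, minus strand), was at 1030 and 1076 in activated cells and at 429 and 436 with the control microRNA, which is -1.27 ± 0.10 (adjusted p = 6.5e-04). It was at 19 in quiescent cells and at 170.5 with miR-15a. Cnn1, calponin, was at 5345 and 5124 against 3048 and 2954 (-0.80 ± 0.08). Mylk, the kinase that activates myosin, fell by 0.70, Myl9, a myosin light chain, fell by 0.60, and Tpm2, a tropomyosin, fell by 0.45. Itga8, an integrin of stellate cells and smooth muscle, fell by 1.06, Cnn3 fell by 0.53 and Cnn2 fell by 0.23. Tagln, transgelin, sat on the same step of 20504 in all 4 libraries and Acta2 did not pass (-0.56 ± 0.42, adjusted p = 0.40). Of the list 5 genes fell without activated library a and 5 without control library b. Without control library a 9 fell and 3 rose.

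Markers of vascular smooth muscle and pericytes pointed the same way. Of 7 markers tested 6 fell (85.7%, against 6.61% of all genes), with a median log2 fold change of -0.84. All 7 had lower values in both control microRNA libraries than in both activated ones, as did 34.3% of all genes. Mcam, a mural cell adhesion molecule (chromosome 9, 44134469 to 44142727, plus strand), was at 3895 and 3604 in activated cells and at 2170 and 2022 with the control microRNA (-0.84 ± 0.07, adjusted p = 7.8e-04). Rgs5 and Rgs4, which damp G protein signalling in pericytes, fell by 0.89 and 0.97, and Mustn1, a musculoskeletal nuclear protein, fell by 0.54. The members Myh11 and Cnn1 are shared with the contractile list. Notch3, the mural cell Notch receptor, did not pass at 596 and 696 against 413 and 534 (adjusted p = 0.064). The summed value of the 7 markers was 11975 and 11509 in activated cells, 6774 and 6606 with the control microRNA and 6239 and 5951 with miR-15a. In bulk libraries fewer cells of a type and less RNA per cell cannot be told apart. Of the 7, 4 fell without activated library a.

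Integrins and focal adhesion genes fell in part. Of 29 tested 9 fell (31.0%, against 6.61% of all genes) and none rose, with a median of -0.07. Besides Itga1 and Itga8 these were Itga7 (fell by 0.91), Itga4 (fell by 0.59), Itga11, a collagen receptor of myofibroblasts (fell by 0.56), Ptk2, focal adhesion kinase (fell by 0.37), Itga9 (fell by 0.34), Itgb5 (fell by 0.30) and Lims1 (fell by 0.23). Most of the list thus stayed near 0 and 6 of its 9 decreases were below 0.60 in size. The count was 2 without activated library b, 4 without activated library a, 4 without control library b and 6 without either quiescent library. Without control library a 8 fell and 5 rose.

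The matrix genes did not move as a group, and within most matrix classes some members rose while others fell. Of 14 fibrillar collagens and interstitial matrix genes 2 rose and 2 fell, with a median of 0. Col6a2 and Col6a1, chains of the beaded-filament collagen VI, rose: Col6a2 was at 1811 and 1772 in activated cells and at 4266 and 4776 with the control microRNA (1.33 ± 0.12), and Col6a1 was at 4265 and 4546 and at 8724 and 7286 (0.86 ± 0.12). Col14a1, a collagen that associates with fibrils, was at 6000 and 6462 and at 2498 and 3263 (-1.12 ± 0.15), and Col8a1 fell by 0.45. Col1a1 did not pass at 18677 and 20504 against 24105 and 42360 (0.71 ± 0.22, adjusted p = 0.073), although both control libraries were higher.

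Of 18 enzymes that modify and cross-link collagen 6 fell (33.3%, against 6.61% of all genes) and none rose, with a median of -0.21. Plod2, a lysyl hydroxylase, fell by 0.50, Plod1 fell by 0.27, and the prolyl hydroxylase subunits P4ha1 and P4ha2 fell by 0.27 and 0.37. Loxl2, a cross-linking amine oxidase, fell by 0.31. Lox itself went from 125636 in both libraries to 58200 in both, that is from the ceiling to the next step, so the size of its change is set by the steps of the values. These calls were among the least stable of the gene groups. The count was 2 with median-ratio scaling, 1 without activated library a, 0 without activated library b, 2 without control library b, 4 without control library a or either miR-15a library, and 3 without either quiescent library.

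Basement membrane genes split, 4 higher and 3 lower of 16. Lama4, a laminin chain of vessels and muscle, was at 302 and 248 in activated cells and at 1094 and 1050 with the control microRNA (1.95 ± 0.09, adjusted p = 1.6e-04). Col4a2 (0.37 ± 0.05) and Lamc1 (0.31 ± 0.08) rose with it and with Col4a6. Lama2, a laminin of mesenchymal basement membranes, fell by 0.94, and Nid2 and Col18a1 fell by 0.53 and 0.39. Without control library a 8 of the list were higher, and the 3 that fell were at most 2 without any 1 library.

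Small proteoglycans split into 3 higher and 3 lower of 8. Ogn, osteoglycin (chromosome 13, 49608046 to 49624501, plus strand), was at 2422 and 2700 in activated cells and at 1109 and 1032 with the control microRNA (-1.25 ± 0.08), and Aspn and Podn fell by 1.09 and 0.90. Lum, lumican, was at 176 and 182 and at 370 and 346 (0.98 ± 0.13). Prelp (1.07 ± 0.25) and Dcn, decorin (0.42 ± 0.08), also rose. Without either activated library 1 proteoglycan was higher and 1 lower, without either control library 2 and 1, and without either quiescent library 2 and 3. Among 14 matricellular genes 3 rose and 4 fell. Tgfbi rose from 28 in both libraries to 138 in both (2.12 ± 0.13), and Thbs3 and Smoc1 rose by 0.95 and 0.65. Thbs2, thrombospondin 2, fell by 0.85, Postn, periostin, fell by 0.71, Tnc, tenascin C, fell by 0.32 and Cyr61, a target of YAP, fell by 0.29. Postn was at 42350 and 31224 against 24099 and 20500, and its call was lost without activated library a or control library b. The matricellular counts were 1 higher and 2 lower without either activated library and 1 and 1 without control library b.

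Of 14 elastic fibre genes 3 rose and 3 fell. Emilin1 (1.24 ± 0.18), Emilin2 (1.26 ± 0.15) and Efemp1 (2.17 ± 0.44), which sit on the surface of elastic fibres, rose, while Eln, Fbln5 (fell by 0.49) and Lox fell. None of the 3 decreases was called without either activated library, 1 was called without either control or either quiescent library, and 2 of the 3 increases were called without activated library a, control library b or either quiescent library. Of 13 matrix metalloproteinases and their inhibitors 5 rose and 1 fell. Mmp3, stromelysin 1, was at 16 and 9 in activated cells and at 74 and 61 with the control microRNA (2.07 ± 0.21). Mmp13, a collagenase, and Mmp2, a gelatinase, rose by 0.70 and 0.43, and Timp2 rose by 0.31. Timp3 moved from 58200 in both libraries to the ceiling of 125636 in both. Mmp12, the macrophage elastase, fell by 0.31. Timp1 did not pass at 3168 and 3514 against 6464 and 6290 (0.93 ± 0.40, adjusted p = 0.15). Its miR-15a libraries were at 4266 and 6825. The spread was estimated from all 4 groups, quiescent cells included, and which group set it was not tested. Without activated library a or control library b only 1 of the 5 increases in proteases and inhibitors was called, without activated library b or either quiescent library 2, and without control library a 3.

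Regulators of the myofibroblast state, among them ligands and receptors of the TGF-beta and PDGF families, changed in both directions. Of 22 tested 3 rose and 4 fell. TGF-beta and PDGF signalling drive the myofibroblast state, TGF-beta through matrix synthesis and PDGF through growth and migration. Among ligands, Tgfb3 was at 6464 in both activated libraries and at 3448 and 3318 with the control microRNA (-0.93 ± 0.16), Tgfb2 fell by 0.84 and Pdgfa fell by 0.58. Among receptors, Tgfbr1 fell by 0.33 and the co-receptor Tgfbr3 rose from 30 and 20 to 71 and 76 (1.41 ± 0.16). Pdgfra, the PDGF receptor of fibroblasts (chromosome 5, 75152292 to 75198215, plus strand), was at 58 and 60 in activated cells and at 228 and 220 with the control microRNA (1.84 ± 0.13, adjusted p = 4.0e-04), and it was at 310 ± 45.25 in quiescent cells. Pdgfrb did not pass (-0.23 ± 0.09, adjusted p = 0.12). Fst, the activin antagonist follistatin, rose by 0.90. The call of Tgfb3 was lost without activated library a, activated library b or control library b, and each of these left 2 of the 4 decreases in the list.

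Transcription factors of mesenchyme were higher where they were called. Of 18 tested 6 rose (33.3%, against 7.18% of all genes) and none fell, with a median of 0.29. Prrx1, a homeobox factor of fibroblasts (chromosome 1, 163245119 to 163313710, minus strand), was at 662 and 678 in activated cells and at 1506 and 1515 with the control microRNA (1.17 ± 0.07, adjusted p = 2.4e-04). Hand2, a factor of visceral mesenchyme, rose from 70 and 65 to 270 and 241 (1.84 ± 0.17), Gata4, which is expressed in quiescent stellate cells, from 58 and 44 to 162 and 132 (1.44 ± 0.15), and Sox9 from 16 and 19 to 54 and 64 (1.51 ± 0.18). Sox4 and Tcf4 rose by 0.74 and 0.92. The count was 6 or 7 without any 1 library. Markers of mesothelial cells and portal fibroblasts went 3 up and 1 down of 8. Ly6a was at 159 and 128 and at 426 and 357 (1.42 ± 0.12), Cd34 at 10 and 7 and at 26 in both, and Upk3b at 9 and 11 and at 24 and 22, while Eln fell. Thy1, a fibroblast surface marker, did not pass (0.12 ± 0.11). The part of these cell types in the increases was not tested.

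Signalling pathways outside TGF-beta contributed a few genes each. In the insulin-like growth factor axis 3 of 15 rose and 3 fell: Igfbp4 was at 138 and 112 in activated cells and at 486 and 470 with the control microRNA (1.90 ± 0.11), Irs1 and Igf1 rose by 1.12 and 0.90, and Htra1 and Igfbp7 fell by 0.49 and 0.40 beside Igfbp2. Of 15 Wnt genes 4 rose and 1 fell. Lrp6, a Wnt co-receptor (0.84 ± 0.10), the ligand gene Wnt2 (0.88 ± 0.13) and the receptor gene Fzd1 (0.43 ± 0.10) rose along with Sfrp1, and Wnt4 fell by 0.98. Of 21 BMP genes 4 rose, the receptors Acvrl1 (0.97 ± 0.14), Acvr2b (1.21 ± 0.24) and Bmpr2 (0.49 ± 0.08) and the inhibitory Smad6 (0.37 ± 0.08), while the ligand gene Bmp4 fell by 1.16. Of 11 Notch genes Notch4 (1.74 ± 0.15) and Rbpj (0.72 ± 0.11) rose and Jag1, Lfng and Heyl fell by 0.36, 0.56 and 0.87. Of 20 YAP and TEAD targets 3 fell (Lats2, Cyr61 and Tgfb2) and none rose, with a median of 0.02. Without either activated library no Notch gene fell, without either miR-15a or quiescent library 1 fell, and without any 1 activated or control library the BMP increases numbered 2. The Wnt increases numbered 2 without activated library b, and no YAP target fell without it.

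Genes induced by interferon were higher with the control microRNA. Of 33 interferon response genes 18 rose and none fell, 54.5% against 7.18% of all genes, with a median log2 fold change of 0.79. The levels remained low beside the other groups. Isg15, a ubiquitin-like antiviral modifier (chromosome 4, 156199424 to 156200818, minus strand), was at 10 and 4 in activated cells and at 52 and 106 with the control microRNA (2.78 ± 0.33, adjusted p = 0.0035), against 172.5 ± 9.19 with miR-15a and 707 ± 15.6 in quiescent cells. Irf7, the factor that amplifies type I interferon production, was at 19 and 7 and at 64 and 76 (2.14 ± 0.28), against 1082.5 with miR-15a and 2685 in quiescent cells. Usp18, a brake on interferon receptor signalling, rose from 28 and 16 to 92 and 81, Oasl2 from 21 and 15 to 64 in both, Ifit1 from 50 and 26 to 103 and 108, and Ifit3 from 32 and 29 to 88 and 72. The RNA sensors Ifih1, which encodes MDA5, and Ddx58, which encodes RIG-I, rose by 0.66 and 0.44. Mx2, Cmpk2, Ifi44, Xaf1, Parp14, Rtp4, Trim25, Oas2 and Bst2 were also called, from 0.44 (Rtp4) to 2.93 (Bst2). Cmpk2, at 1 and 0 against 7 and 6, and Oas2, at 5 and 2 against 8 and 13, passed the filter only through the quiescent and miR-15a libraries, and the count of 18 includes both. Cxcl10 and Rsad2 did not pass at 8 and 0 against 16 and 15 (adjusted p = 0.056) and at 26 and 7 against 39 and 30 (adjusted p = 0.11).

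**Figure D4:**
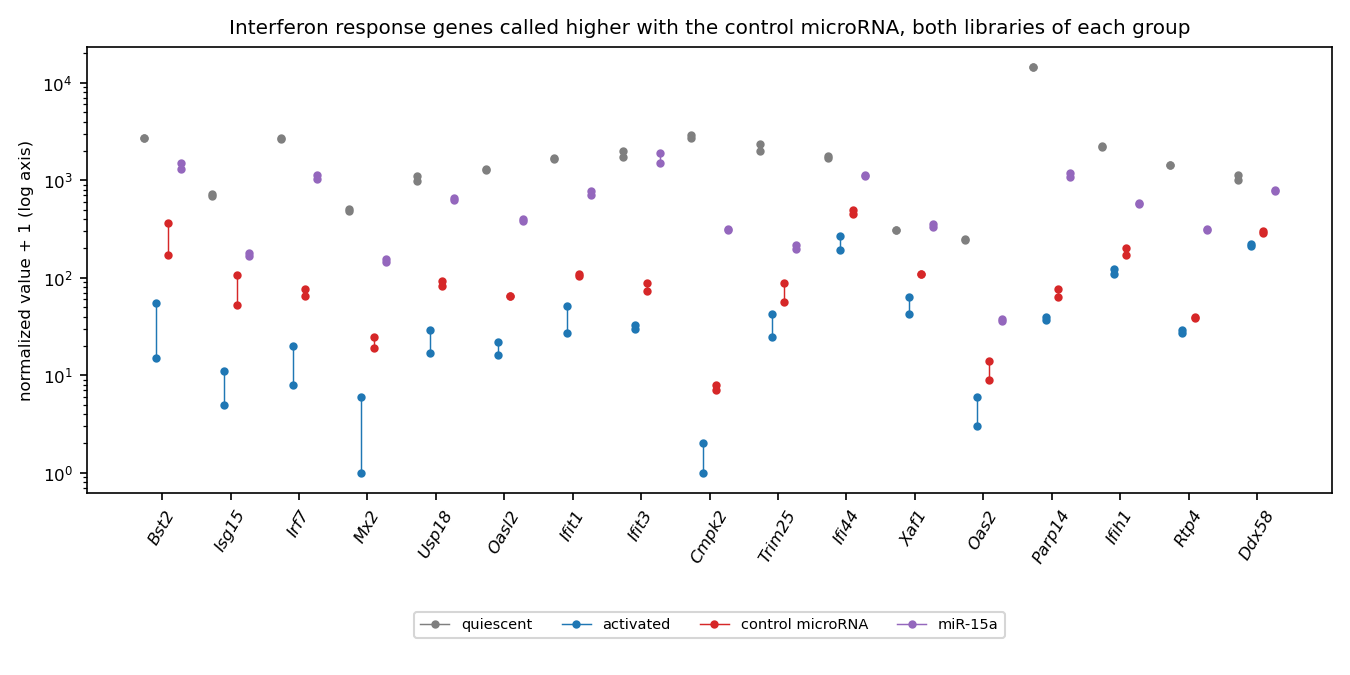
Normalized value + 1 (log axis) of 17 interferon response genes called higher with the control microRNA, in both libraries of each of the 4 groups (joined points). For each gene the 2 control microRNA libraries lie above the 2 activated ones and below the libraries of quiescent cells and of cells with miR-15a.

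Interferon-inducible GTPases, which attack the vacuoles of intracellular pathogens, and genes of MHC class I presentation rose beside them. Of 11 GTPase genes 4 rose, 36.4% against 7.18% of all genes. These were Irgm2 (1.14 ± 0.16), Igtp (1.04 ± 0.19), Gbp3 (1.04 ± 0.20) and Irgm1 (0.57 ± 0.10). Of 19 MHC class I genes 7 rose (36.8%, against 7.18% of all genes) and none fell. H2-D1, a classical class I heavy chain, was at 106 and 86 and at 184 and 169 (0.85 ± 0.10), H2-T24 rose by 1.45 and H2-T23 by 0.51. The peptide transporter genes Tap1 and Tap2 rose by 0.68 and 0.71, Tapbp, which loads peptides, by 0.29 and the chaperone gene Calr by 0.47. H2-K1 (447 and 342 against 450 and 452) and B2m, the common light chain (0.15 ± 0.06), did not pass. The interferon response count was 12 without control library b and 13 without activated library b, and between 15 and 18 without any other library. When the spread was estimated from the 2 compared groups alone, none of the 3 lists had a gene called by limma (Isg15 had an adjusted p of 0.0724 and Irf7 of 0.0781), although 19 interferon response genes, 5 GTPase genes and 9 MHC class I genes were higher at an unadjusted p under 0.05. The MHC class I count was 3 without activated library b and 4 without activated library a, control library b or either quiescent library, and the GTPase count was 1 without control library b, 3 without activated library b and 6 without activated library a.

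The interferon-stimulated response element, the DNA motif through which these genes are switched on, was sought as GAAA, any 2 bases and GAAA again on both strands (on the other strand TTTC, any 2 bases and TTTC) in RefSeq promoter windows of GRCm38.p6, the assembly behind mm10, from 250 bases before to 50 after each gene's start. Of 13150 genes tested 9797 had a window, and 369 of these (3.77%) held a match. Of the interferon response genes 23 had a window and 11 held a match (47.8%), 6 of them among the 12 called genes with a window, and all 7 GTPase genes with a window held one. Of the MHC class I genes 15 had a window and 4 held a match, 1 of them among the 5 called genes with a window. The stretches below are shown because they belong to called genes of these lists and lie wholly before the gene's start in RefSeq. In GENCODE M21 the genes Irgm1 and Irgm2 start further upstream, and their stretches lie within the gene. Capitals mark 1 match with 15 bases on each side, in the direction of the gene, and matches in Isg15, Irgm1, Gbp3 and Bst2 overlap further ones.
Ifit3: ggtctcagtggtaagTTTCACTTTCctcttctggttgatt
Isg15: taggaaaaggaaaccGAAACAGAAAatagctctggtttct
Irgm2: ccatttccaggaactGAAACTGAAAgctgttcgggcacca
Igtp: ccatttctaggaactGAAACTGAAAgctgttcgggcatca
Irgm1: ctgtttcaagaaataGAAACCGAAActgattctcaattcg
Ifit1: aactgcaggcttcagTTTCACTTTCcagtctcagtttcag
Gbp3: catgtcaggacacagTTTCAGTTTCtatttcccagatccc
Bst2: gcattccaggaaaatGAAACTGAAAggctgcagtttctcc
They lie at chr19:34583358-34583397 (Ifit3), chr4:156200860-156200899 (Isg15), chr11:58214898-58214937 (Irgm2), chr11:58199507-58199546 (Igtp), chr11:48871420-48871459 (Irgm1), chr19:34640770-34640809 (Ifit1), chr3:142559984-142560023 (Gbp3) and chr8:71537572-71537611 (Bst2). The values of these 8 genes with the control microRNA lay above those of activated cells without overlap, as in 25.2% of all genes. The 8 were shown because they were called, so the lack of overlap adds no support. A match of letters is a description and does not show that a factor binds there.

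The same search was made for the CArG box, the serum response factor motif of contractile genes, written as CC, 6 bases that are each A or T, and GG. It was present in 158 of 9797 promoter windows (1.61%), in 3 of 18 contractile genes with a window, and in 2 of the 7 called ones, the myosin light chain gene Myl9 and the calponin gene Cnn2, both lower with the control microRNA. None of 6 vascular smooth muscle markers with a window and 1 of 21 integrin and focal adhesion genes held a match, the latter not among the 7 called ones.
Myl9: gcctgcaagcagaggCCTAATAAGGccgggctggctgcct
Cnn2: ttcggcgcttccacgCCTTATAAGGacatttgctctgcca
These stretches lie at chr2:156775288-156775327 and chr10:79988529-79988568, before the start of each gene on the plus strand.

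Of 19 complement genes 8 rose (42.1%, against 7.18% of all genes) and 1 fell, with a median of 0.50. Besides C3 they included C4b, at 3 and 2 in activated cells and at 34 and 39 with the control microRNA (2.47 ± 0.15), C1s1, a protease of the first component, at 112 and 139 and at 533 and 476 (1.97 ± 0.14), its partner C1ra (0.85 ± 0.09), Clu (1.31 ± 0.31), Cfp (0.59 ± 0.13) and C1qa (0.51 ± 0.12). Cd59a, which blocks the membrane attack complex, fell by 0.61. The count was 5 without activated library b, control library b or either quiescent library, and C3, C4b, C1s1 and C1ra kept their calls in all 16 alternative analyses.

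Of 27 inflammatory mediators 8 rose (29.6%, against 7.18% of all genes) and none fell (median 0.20). Cxcl5, a neutrophil chemokine, was at 2 in both activated libraries and at 69 and 66 with the control microRNA (3.37 ± 0.11, adjusted p = 2.5e-05). Ccl2, the monocyte chemokine, was at 241 and 218 and at 414 and 444 (0.89 ± 0.07), Ccl7 rose by 0.65 and Ccl4 by 1.25. Il33, an alarmin, was at 32 and 0 in activated cells and at 93 and 94 with the control microRNA (2.86 ± 0.76). Its log2 fold change ranged from 1.41 to 4.30 with 1 library left out, and its call was lost without any 1 library other than an activated one. The adhesion molecule Vcam1 was at 368 and 364 and at 665 and 634 (0.82 ± 0.06), and Nfkb2, a subunit of NF-kB, rose by 0.68. Il6 did not pass (-0.18 ± 0.08). With miR-15a Ccl2 was at 6375 and Vcam1 at 1853, above both groups of this comparison.

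Endothelial, macrophage and hepatocyte markers summed to far less in both groups than in the quiescent libraries. Of 23 endothelial markers 4 rose and 1 fell (median 0.67). Flt1, a VEGF receptor, was at 92 and 89 in activated cells and at 425 and 444 with the control microRNA (2.20 ± 0.07), Stab1 at 36 and 24 and at 84 and 130, Flt4 at 5 and 0 and at 16 and 29, Ptprb rose by 0.34 and Vwf fell from 9 and 8 to 2 and 4. Vwf passed the filter only through the quiescent libraries (270 and 216), and its call was lost without any 1 of the 8 libraries. The defining endothelial genes Pecam1 (32 and 0 against 18 and 48), Cdh5 (16 and 1 against 24 and 43) and Stab2 (20 and 3 against 26 and 43) did not pass. The summed value of the 23 markers was 1610 and 1392 in activated cells and 2034 and 2592 with the control microRNA, against 284746 and 214355 in quiescent cells. Of 20 macrophage markers only C1qa rose (294 and 230 against 364 and 379). Marco was at 1 and 0 against 1 and 4, Clec4f at 12 and 1 against 10 and 22 and Csf1r at 149 in both against 190 and 154. Their sum was 2393 and 2159 in activated cells and 2935 and 2709 with the control microRNA, against 149077 and 170341 in quiescent cells.

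Activated library b held less of the endothelial and macrophage marker transcripts than library a by their sums, which showed when a library was left out. Without activated library a 12 endothelial and 6 macrophage markers were higher, and without activated library b 2 and 0. None of 21 hepatocyte markers was called by limma, and 0 were higher and 0 lower at an unadjusted p under 0.05. Their sum was 656 and 842 in activated cells and 351 and 1990 with the control microRNA, and Apob was at 98 and 117 against 108 and 230, so control library b stood above control library a. Without control library a 7 hepatocyte markers were higher, and without control library b 4 were lower. Of the 2 cholangiocyte markers Sox9 rose and the other did not pass. The single tested lymphocyte and neutrophil markers did not pass and lay between 0 and 6 in the 4 libraries. The part of endothelial and macrophage cells in the increases of interferon, complement and chemokine genes was not tested.

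Part of the DNA replication genes were higher, and few mitotic genes were called. Of 30 replication and S phase genes 8 rose (26.7%, against 7.18% of all genes) and none fell (median 0.25). They included every subunit of the replicative MCM helicase: Mcm2 was at 184 and 177 in activated cells and at 432 and 498 with the control microRNA (1.34 ± 0.09, adjusted p = 4.0e-04), Mcm7 rose by 0.67, Mcm3 by 0.54, Mcm6 by 0.53, Mcm5 by 0.50 and Mcm4 by 0.43. Pold1, the catalytic subunit of DNA polymerase delta, was at 192 and 182 and at 381 and 355 (0.96 ± 0.14), and Uhrf1, which maintains DNA methylation, rose by 0.66. Of 30 mitosis and spindle genes 2 fell, Anln (fell by 0.67) and Prc1 (fell by 0.39), and none rose, with a median of -0.24. The proliferation marker Mki67 was at 870 and 881 against 824 and 870 (adjusted p = 0.82), Top2a at 1772 and 1810 against 1506 and 1282 (adjusted p = 0.066) and Ccnb1, cyclin B1, at 326 and 380 against 312 and 281 (adjusted p = 0.46). The replication count was 3 without activated library b, and 5 without activated library a or either control library. No mitotic gene was called without activated library a, activated library b or control library b, and 4 fell without control library a.

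Cytosolic ribosomal protein genes were higher where called, 8 of 36 (22.2%, against 7.18% of all genes) with none lower (median 0.15). Rps18 was at 2076 and 1664 in activated cells and at 3047 and 3168 with the control microRNA (0.74 ± 0.10), and Rplp0 at 9198 and 8724 and at 12562 in both (0.49 ± 0.07). Ribosomal protein genes have many processed copies and their values are uncertain for that reason. Median-ratio scaling raised the count to 16, and leaving out 1 library lowered it, to 2 without activated library b, 3 without activated library a or control library b, 4 without control library a and 5 without any 1 of the others. Subunits of oxidative phosphorylation stayed near 0, with 2 of 29 higher, none lower and a median of 0.01. Of 18 glycolytic genes 1 was higher and 3 were lower (16.7%, against 6.61% of all genes). Of 25 genes of cholesterol synthesis 2 were lower (8.0%, median -0.13).

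Genes listed as markers of the quiescent stellate state changed in both directions, and 2 of 20 rose and 4 fell, with a median of -0.12. Hand2 and Cygb, cytoglobin (359 and 374 against 831 and 685, 1.03 ± 0.10), rose. In this series both were lower in quiescent than in activated cells (means of 40.5 against 67.5 and 276 against 366.5). Ngfr, a neurotrophin receptor, fell from 477 and 452 to 241 and 218, Rgs5 fell by 0.89 and Plin4, a lipid droplet protein, fell by 1.18. Ngfr was at 220 in both quiescent libraries. The rise of Hand2 and Cygb was thus away from the quiescent level, and the fall of Ngfr was towards it. Pparg, the adipogenic nuclear receptor, was at 378 and 357 in activated cells and at 240 and 204 with the control microRNA (-0.72 ± 0.13, adjusted p = 0.013), a call lost without activated library a, activated library b or control library b. Reln, a glycoprotein of quiescent stellate cells, was at 14 and 22 against 11 and 6 (adjusted p = 0.067), far under its 8224 ± 707 in quiescent cells, and Hgf did not pass (-0.22 ± 0.09). Of 20 retinoid genes 2 rose and 3 fell. Rdh10 and Rdh11, which interconvert retinol and retinal, fell by 0.58 and 0.55 and Adh7 fell by 1.58, while the receptors Rarb and Rxrb rose by 0.74 and 0.42. Of 23 adipogenic and lipid droplet genes 3 rose and 3 fell. Cebpb and Cebpd rose by 0.72 and 1.18 and Acly by 0.22, and Fabp5 fell by 0.47 beside Pparg and Plin4. Without activated library a, activated library b or control library b none of these lipid genes was called higher or lower, and of the retinoid genes none was higher and 1 was lower. Of the quiescent markers 2 fell without either activated library and 6 without control library a.

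Immediate early and serum response genes were lower in part, 7 of 23 (30.4%, against 6.61% of all genes) with 1 higher (median -0.30). Egr2 was at 513 and 563 in activated cells and at 320 and 310 with the control microRNA (-0.76 ± 0.09). Klf2 and Klf6 fell by 0.62 and 0.45, Zfp36, which destabilises cytokine messengers, fell by 0.60, Ier2 and Ier5 fell by 0.53 and 0.44 and the phosphatase gene Dusp1 fell by 0.32. Jun rose by 0.39. The number that fell was 3 without activated library a, 2 without activated library b and 4 without control library b or with the replicate letter as a block, a setting described with the alternatives.

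Stress pathways had few calls. Of 25 genes of the unfolded protein response 1 rose and 2 fell, of 15 heat shock genes 2 rose and 2 fell, of 19 oxidative stress genes 1 rose and 2 fell, and of 15 hypoxia genes 1 rose and 3 fell. Targets of p53 (2 higher and 1 lower of 21) and regulators of apoptosis (2 higher and 1 lower of 22) were near the background. Of 28 lysosomal genes 4 rose and 4 fell, and 1 rose and none fell without either activated library.

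Introduced microRNAs act through the silencing machinery, and genes of that machinery and known targets of the miR-15 family are given for this reason. Of 15 microRNA machinery genes 3 rose and none fell (median 0.13): Ddx17, a helicase that helps to process primary microRNAs, was at 1824 and 1810 in activated cells and at 2732 and 3203 with the control microRNA (0.70 ± 0.08), and the silencing scaffold genes Tnrc6b and Tnrc6a rose by 0.88 and 0.38. Dicer1 (0.10 ± 0.08) and Ago2 (566 and 537 against 561 and 891, adjusted p = 0.23) did not pass. Of 21 targets of the miR-15 family 2 rose and none fell, with a median of 0.08. Cdk6, a cell cycle kinase, was at 83 and 80 and at 116 and 154 (0.68 ± 0.15). Bcl2 was at 92 and 108 against 118 and 143 (adjusted p = 0.13), Ccnd1, cyclin D1, at 2386 and 2276 against 2670 and 2700 (adjusted p = 0.063), Ccne1, cyclin E1, at 170 and 175 against 163 and 156 and Dleu2, the host transcript of miR-15a, at 75 and 83 against 72 and 78 (adjusted p = 0.75). The call of Cdk6 was lost without activated library a, activated library b, control library b or either quiescent library. Without activated library a, activated library b or control library b no target was called, and without control library a 4 were higher. Of the machinery genes 1 was called without either activated library.

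**Figure D5:**
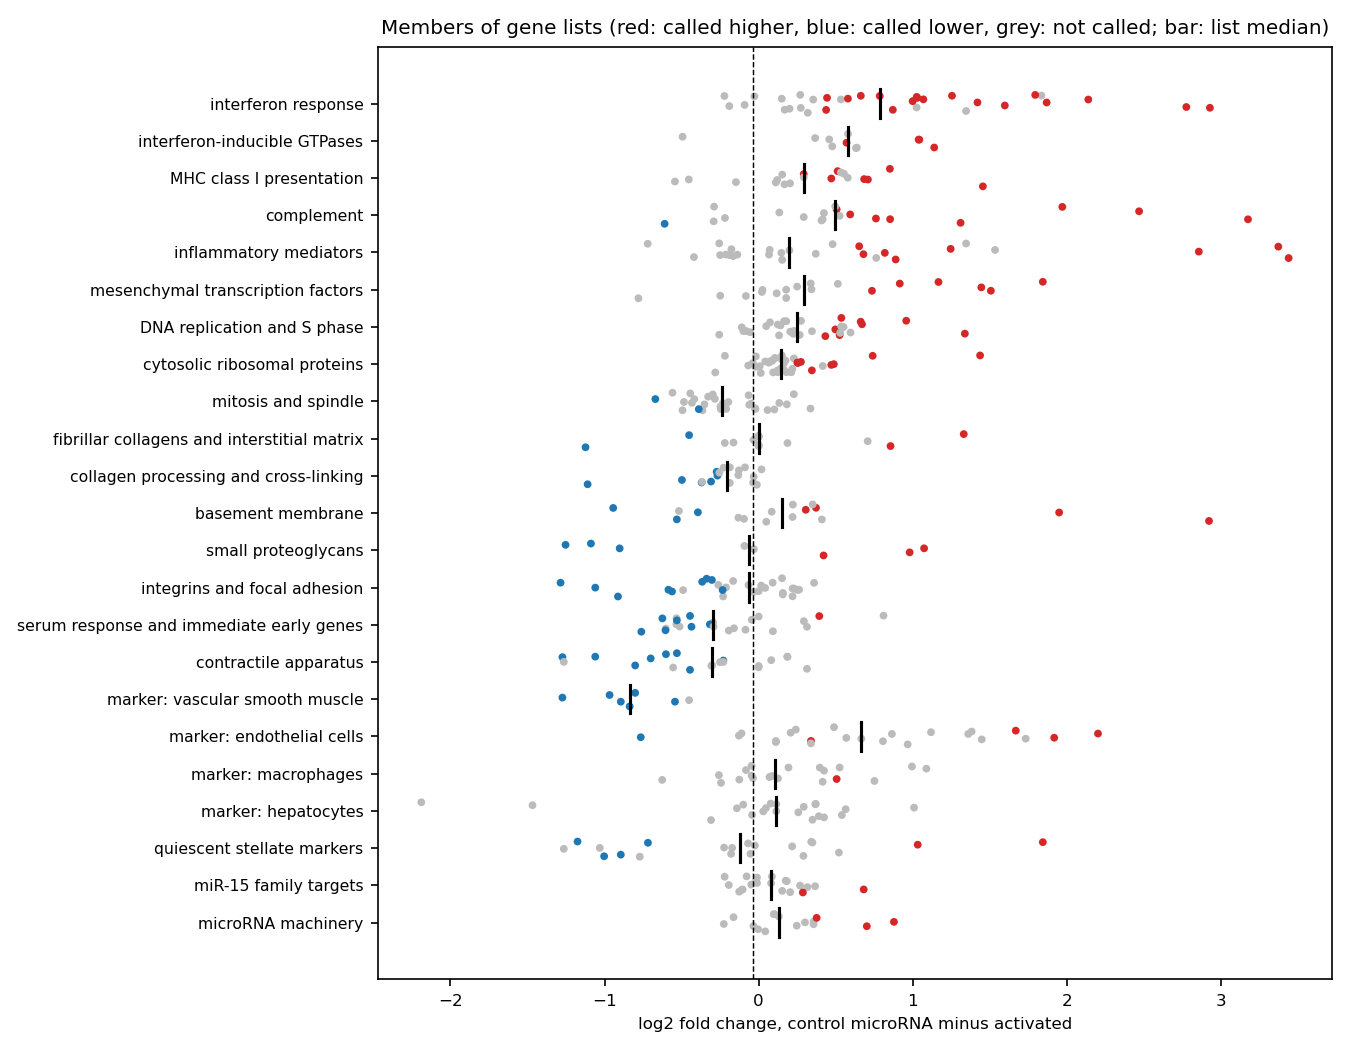
Log2 fold change (control microRNA minus activated, horizontal axis) of each tested member of 23 gene lists, with members called higher in red, lower in blue and others in grey. Black bars are list medians and the dashed line is the median of all genes (-0.035), with interferon response genes at a median of 0.79 and vascular smooth muscle markers at -0.84.

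The miR-15a libraries give a further reference for these genes, since they hold activated cells with a microRNA of known identity. Both comparisons with untreated cells use the same activated libraries, so only levels are given side by side. Pdgfra was at 224 ± 5.66 with the control microRNA and 198.5 ± 19.1 with miR-15a, C3 at 239 ± 26.9 and 237 ± 52.3, and Mcam at 2096 ± 104.7 and 1966.5 ± 99.7. For these 3 genes the direct difference between the microRNA groups, miR-15a minus control, did not pass (adjusted p = 0.35, 0.93 and 0.36, with log2 differences of -0.17 ± 0.13, -0.02 ± 0.18 and -0.09 ± 0.07). Other genes differed between the 2 microRNA groups. Prrx1 was at 1510.5 ± 6.36 with the control microRNA and 654.5 ± 12.0 with miR-15a, against 670 ± 11.3 in activated cells. Itga1 (1301 ± 9.90 and 642 ± 50.9) and Myh11 (432.5 ± 4.95 and 170.5 ± 14.85) were lower still with miR-15a, and Usp18 was higher, at 640 against 86.5.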

How the data were processed

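RNA from 8 libraries of mouse hepatic stellate cells was sequenced. STAR, Subread and featureCounts and the mm10 assembly are named in the submitters' processing notes, with no versions. The deposited values are normalized scores per gene: the authors' table holds whole numbers whose sums lie within 0.409% of each other and which take the same 910 distinct values in every library. How they were normalized is not given in the sources used here, and they are not read counts, so the depth is unknown and no count test was used, although the planned design allowed for counts. Genes at 10 or more in at least 2 libraries were kept. Log2(value + 5) was fitted with limma 3.58.1 in R 4.3.3 as 4 group means over 8 libraries with a variance trend. Adjusted p-values are Benjamini-Hochberg over 13150 genes, and genes under 0.05 were called. The rule for the leading genes took the 15 largest changes in each direction among called genes without overlap and with a group mean of at least 100. Positions are from GENCODE M21 and promoters from RefSeq. Gene lists and the comparison itself were chosen with earlier results of these data known. Among the alternatives were other pseudocounts, filters and scalings, the replicate letter as a block and leaving out each library. Some called genes counted in the lists are not reported here by name. The fit was tested on simulated data.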

Additional observations from a re-analysis of the deposited data

How the results depend on the processing

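Of 223 named genes that were called, all 223 kept their direction under the 16 alternative settings and 59 kept their call in every one. The number of genes higher and lower was 235 and 87 with a log2 fold change over 1 as well, 1371 and 494 with median-ratio scaling, and 158 and 118 with the spread estimated from the 2 compared groups alone, where 268 of the 276 calls were shared with the fit of 4 groups. With the spread from these 2 groups alone, lists other than those of interferon and MHC class I also lost calls. Decreases went from 9 to 1 for integrins and focal adhesion and from 7 to 1 for immediate early genes. Increases went from 8 to 2 for replication genes and from 8 to 2 for ribosomal protein genes. Complement and inflammatory increases and contractile decreases each went from 8 to 5. Without a filter on low values 1630 genes were lower. Leaving out 1 library gave 356 to 1011 higher and 134 to 677 lower. Whether libraries of the same letter in different groups were paired is not stated. Deviations of same-letter activated and control libraries correlated at 0.0388, which does not show whether they shared an animal, culture or batch. With the replicate letter as a block 843 genes were higher and 647 lower. Of genes that were not called, Dleu2 changed sign to 0.008 and Mki67 to 0.0344 with median-ratio scaling. Without 1 library Pecam1 ranged from -0.0837 (without activated library b) to 2.8038 (without activated library a) and Mup3 from -4.6664 (without control library b) to 0.2878 (without control library a). The cause was not tested. The depth behind each value is unknown, values at the top move in coarse steps, and with 2 libraries a group no exact test of a single gene could pass.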

Other observations

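Among genes outside the lists, chosen after their values were seen, several belong to families with near-identical copies, among which reads could have been split, so their values are uncertain. The histone gene Hist1h3g was at 51 and 50 in activated cells and at 180 and 222 with the control microRNA, while Hist1h4n fell from 270 and 272 to 124 and 100. Rpl29, a ribosomal protein gene, was at 179 and 174 and at 715 and 652. The small nucleolar RNAs Snora23, Snord15b and Snord17 fell by 1.27, 1.15 and 1.12 on the log2 scale. Of 24 tested Y-linked rows, 17 had a mean between 71 and 76.5 in activated cells and between 48.5 and 52 with the control microRNA.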
